A study of Mus musculus with 6 samples.

Results

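Fam13a, Lyplal1, Cobll1, Tbx15, Rspo3, Plxnd1 and Adamts9 are mouse genes whose human counterparts lie at loci associated with fat distribution, the balance of fat between waist and hip. These 7 genes, of 18193 measured, were found by their symbols in the platform annotation, and all of them were measured. The group was chosen by the place of the human genes at such loci, with the KSR2-/- minus WT differences of these same 6 arrays in view, including the low Fam13a signal. The differences of the 7 genes are therefore descriptions and carry no test. The samples were white fat from 6 female C57Bl6 mice aged 6 months, 3 wild type (WT) and 3 KSR2-/-, each mouse read on 1 Affymetrix array. KSR2-/- animals, called knockouts here, lack kinase suppressor of Ras 2, a scaffold of the Raf-MEK-ERK cascade whose loss is known to cause obesity and insulin resistance in mice. The labels name neither the fat depot nor the part of Ksr2 that was deleted, and they mention no treatment.

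Fat-distribution loci were mapped in people by measuring waist and hip. The genes at these loci tend to act in adipocytes, in their precursors and in the vessels and matrix around them. FAM13A has been reported to protect the insulin receptor substrate IRS1 in adipocytes. LYPLAL1 is a serine hydrolase related to lysophospholipases, COBLL1 is a relative of the actin nucleator cordon-bleu, and TBX15 is a T-box transcription factor that marks particular fat depots. RSPO3 is a secreted ligand that strengthens Wnt signals, PLXND1 is a receptor for the guidance protein semaphorin 3E, and ADAMTS9 is a secreted metalloprotease that cuts the proteoglycan versican.

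The 7 genes are not neighbours as a group. On mouse GRCm38.p6, 3 of them lie far apart on chromosome 6 (Fam13a from 58933536 to 59024502, Adamts9 from 92772699 to 92944450, Plxnd1 from 115954811 to 115995339). Lyplal1 lies on chromosome 1 (186087732 to 186117310), Cobll1 on chromosome 2 (65088339 to 65239398), Tbx15 on chromosome 3 (99240348 to 99354260) and Rspo3 on chromosome 10 (29453106 to 29535867).

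RefSeq promoter sequences (250 bases before to 50 after a start site, GRCm38.p6, minus strand in all 3 cases below) are printed for Fam13a, Lyplal1 and Plxnd1, whose WT and knockout values did not overlap. Entries were matched for 5 of the 7 genes, these 3 with Cobll1 and Adamts9, and none is shown for Rspo3 and Tbx15. The search covered the TATA box TATAAA, the CCAAT box, the GC box GGGCGG, the E-box CACGTG, the nuclear receptor motif AGGTCA and the forkhead motif TGTTTAC, on both strands. No motif searched contains another. Capitals mark every match.
Fam13a, chr6:59024453-59024752: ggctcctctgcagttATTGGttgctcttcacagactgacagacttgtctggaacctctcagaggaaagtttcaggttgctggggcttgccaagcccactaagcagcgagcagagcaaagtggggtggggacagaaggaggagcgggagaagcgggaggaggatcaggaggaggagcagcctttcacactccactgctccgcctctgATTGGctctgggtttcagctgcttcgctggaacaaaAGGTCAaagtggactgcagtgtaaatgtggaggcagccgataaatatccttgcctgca
Lyplal1, chr1:186117261-186117560: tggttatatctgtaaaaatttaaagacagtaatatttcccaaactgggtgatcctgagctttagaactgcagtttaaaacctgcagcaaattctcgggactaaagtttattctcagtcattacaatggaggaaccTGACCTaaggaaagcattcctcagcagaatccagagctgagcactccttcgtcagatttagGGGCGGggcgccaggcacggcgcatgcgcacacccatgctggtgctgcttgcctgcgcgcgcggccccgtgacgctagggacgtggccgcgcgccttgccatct
Plxnd1, chr6:115994956-115995255: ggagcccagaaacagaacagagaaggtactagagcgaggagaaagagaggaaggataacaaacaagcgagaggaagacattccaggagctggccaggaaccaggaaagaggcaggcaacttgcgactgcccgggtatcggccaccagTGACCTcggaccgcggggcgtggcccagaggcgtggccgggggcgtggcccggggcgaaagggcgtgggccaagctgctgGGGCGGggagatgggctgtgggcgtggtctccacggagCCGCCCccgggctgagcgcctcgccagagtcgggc
AGGTCA or its complement was found once in each of these 3 promoters and in neither the Cobll1 nor the Adamts9 promoter, so in 3 of 5, and it occurs in 16.3% of the 32851 promoters of this length. The 3 were picked by the values of these same arrays, and Rspo3, also without overlap, has no entry. Plxnd1 read higher in knockout, and Fam13a and Lyplal1 read lower. A tie between the motif and the differences was not tested. The windows are also unlike in place. Those of Plxnd1, Cobll1 and Adamts9 lie wholly inside the gene ranges given above, so at internal start sites. Those of Fam13a and Lyplal1 cross the end of the gene range. Fam13a held CCAAT 2 times, both on the other strand (a motif of 37.4% of promoters). Lyplal1 held 1 GC box and Plxnd1 held 2 (35.7% of promoters). The GC content was 55.0% for Fam13a, 52.3% for Lyplal1 and 67.0% for Plxnd1, beside a median of 52.7% over all promoters. No match to the E-box, forkhead motif or TATAAA was present in these windows.

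Median linear intensities of the arrays were 22.4 to 24.2, and the arrays correlated with each other at 0.955 to 0.988 across genes. The highest value was that of WT 3 with knockout 3. Knockout 3 correlated at 0.974, 0.982 and 0.988 with WT 1 to 3, and at 0.970 and 0.977 with knockouts 1 and 2. The Ksr2 probe set read 4.74, 4.04 and 4.47 log2 in WT 1 to 3 and 4.47, 4.28 and 4.26 in knockouts 1 to 3, so the groups overlapped. The labels do not say whether it lies in the deleted part, so it cannot serve as a check of them. Of 13 adipocyte markers 10 were measured, and their mean log2 level was 11.6 to 11.9 in WT and 11.4 to 12.2 in knockout. The defining markers Adipoq (13.52 in WT, 13.02 in knockout) and Retn (13.37 and 12.14) read high intensities, which matches the tissue label. Animal numbers in the labels form a higher-numbered series (WT 1 and 2, knockouts 1 and 2) and a lower-numbered pair (WT 3 and knockout 3). WT 3 stood apart in the 3' minus 5' difference of the Gapdh controls, a gauge of RNA integrity, at 4.18 log2 against 0.07 to 1.46 on the other arrays. It also had the highest mean level of 9 skeletal muscle markers (7.53 against 4.42 to 5.53) and of 10 mammary epithelium markers (6.22 against 4.20 to 5.26). Knockout 3 stood nearer to WT than the other knockouts in the mean of 10 macrophage markers, at 8.65 against 9.76 and 9.81, with WT at 8.37 to 8.62.

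In knockout fat, Fam13a read 5.35-fold lower than in WT, Rspo3 2.03-fold lower and Lyplal1 1.95-fold lower, while Plxnd1 read 1.50-fold higher. In these 4 of the 7 genes (57.1%) the knockout and WT values did not overlap, and the same held for 16.3% of all genes. Tbx15 (0.34 log2 lower), Cobll1 (0.25 higher) and Adamts9 (whose probe sets differ in sign) overlapped between the groups on their main probe sets. By limma, 0 of the 7 genes passed an adjusted p under 0.05, beside 0.0055% of all genes, which is 1 gene. At an unadjusted p under 0.05 there were 4 of the 7, beside 12.1% of all genes. Nothing is read from these counts, because the genes were chosen with this comparison in view. Without knockout 3, 2 of the 7 passed (Fam13a and Lyplal1), beside 816 of the 18193 genes. The median difference of the 7 was −0.34 log2, and that of all genes was −0.04. In bulk tissue, fewer cells of a type and less RNA per cell cannot be told apart.

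**Figure D1:**
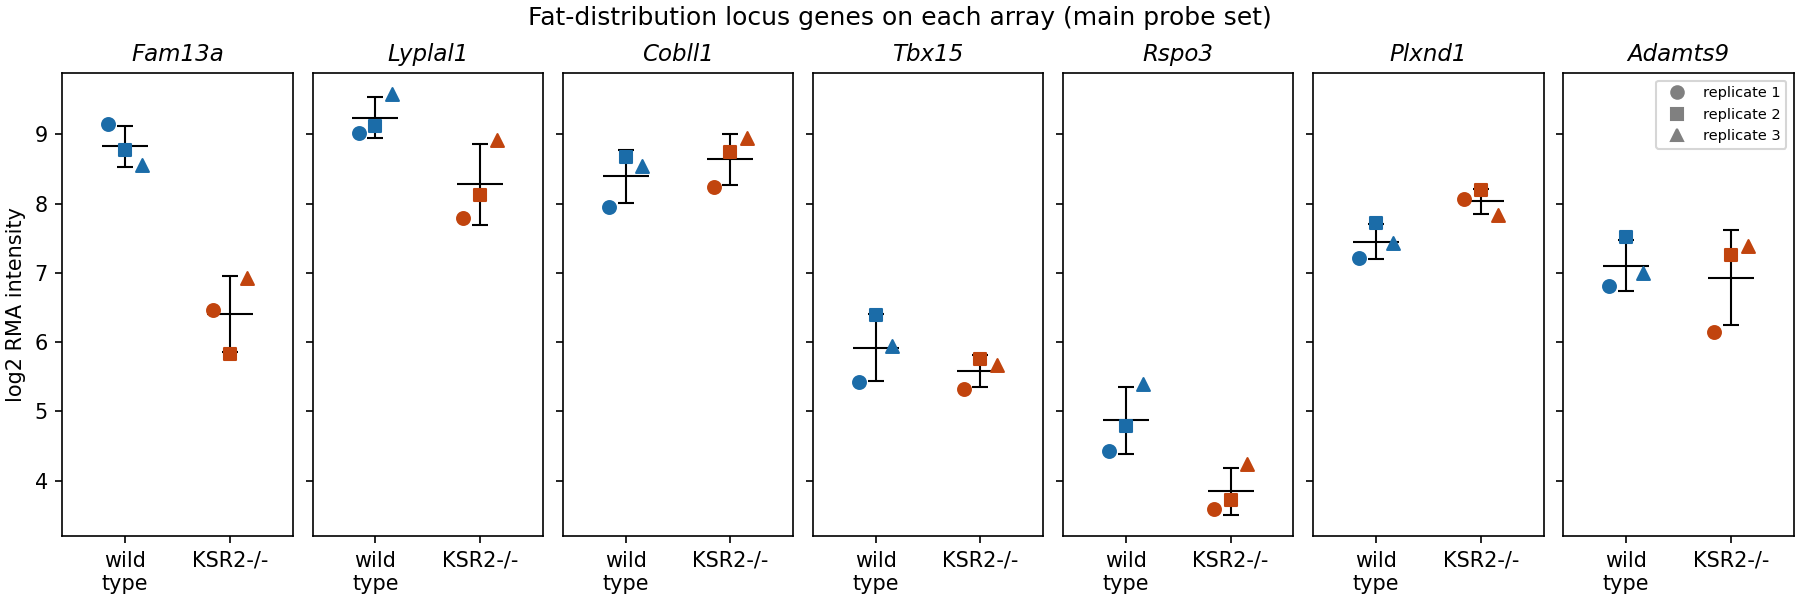
Log2 RMA intensity of the main probe set of each gene (vertical axis) on the 3 WT arrays (blue) and 3 KSR2-/- arrays (orange), with marker shape for the replicate and black bars for mean ± SD. Fam13a shows the widest gap, with every knockout at 6.93 or below and every WT array at 8.56 or above, while Cobll1, Tbx15 and Adamts9 overlap.

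Fam13a, through its brightest probe set, read 9.15, 8.77 and 8.56 log2 in WT 1 to 3 and 6.46, 5.83 and 6.93 in knockouts 1 to 3. The highest knockout lay 1.64 below the lowest WT array. The mean was 8.83 ± 0.30 in WT and 6.41 ± 0.55 in knockout (SD, n = 3 each), a difference of −2.42 log2 (SE 0.30). In size this ranked 17th from the bottom of the 18193 differences. It was −2.81 among the 4 higher-numbered animals and −1.64 for the other pair. With 1 array left out it ran from −2.68 to −2.13, and with the Gapdh difference as a covariate it was −2.53, and it was −2.55 without WT 3 and −2.68 without knockout 3. Knockout 3, the knockout with the lowest macrophage marker level, lay 1.90 below the WT mean, against 2.36 and 2.99 for knockouts 1 and 2. The part of macrophage content in the difference was not tested.

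The other Fam13a probe set was less even. It read 7.43, 6.29 and 5.07 in WT 1 to 3 and 3.54, 4.32 and 4.97 in knockouts 1 to 3. Knockout minus WT was −1.99 (SE 0.62, from the fit of all probe sets). The groups did not overlap, but WT 3 and knockout 3 lay only 0.10 apart, while the higher-numbered series differed by −2.93. The low WT value is that of WT 3, the array with the Gapdh difference of 4.18, and the part of RNA integrity in it was not tested. Averaging both probe sets gave −2.20 (SE 0.41).

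Lyplal1, the serine hydrolase gene, has a single probe set. It read 9.02, 9.12 and 9.58 in WT and 7.79, 8.12 and 8.92 in knockout, with means of 9.24 ± 0.30 and 8.28 ± 0.58 (SD, n = 3 each). Knockouts 1 and 2 were clearly low, whereas knockout 3 came within 0.10 of the lowest WT array. The difference was −0.96 log2 (SE 0.31), at −1.11 among the higher-numbered animals and −0.66 for the other pair. Leaving out 1 array gave −1.28 (without knockout 3) to −0.72 (without knockout 1).

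Rspo3, the Wnt-strengthening ligand, had a dim signal, its mean lying at the 32.5th percentile of all genes. Its brighter probe set read 4.43, 4.79 and 5.39 in WT and 3.59, 3.71 and 4.24 in knockout, with a gap of 0.19 between the groups. Means were 4.87 ± 0.49 and 3.85 ± 0.34 (SD, n = 3 each), a difference of −1.02 (SE 0.29). This was one of the differences of like size in both series, at −0.96 and −1.15. Without WT 3, its highest array and the one with muscle and mammary markers raised, the difference was −0.76. The second probe set was dimmer still, at 3.01 to 3.60 in WT and 2.98 to 3.79 in knockout, and differed by −0.08 (SE 0.27). The 2 probe sets of Rspo3 therefore disagree in size, and their mean differed by −0.55 (SE 0.18).

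Plxnd1, the semaphorin receptor, was the gene read higher in knockout without overlap. It read 7.21, 7.71 and 7.43 in WT and 8.06, 8.20 and 7.84 in knockout, a gap of 0.13. Means were 7.45 ± 0.25 and 8.03 ± 0.18 (SD, n = 3 each), a difference of 0.58 (SE 0.19). The higher-numbered animals differed by 0.67 and the lower-numbered pair by 0.41, with 0.46 to 0.71 with 1 array left out. Only 1 probe set measures it.

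Cobll1, Tbx15 and Adamts9 did not separate the genotypes on their main probe sets. Cobll1 read 7.95, 8.67 and 8.55 in WT and 8.23, 8.75 and 8.94 in knockout, a difference of 0.25 (SE 0.27), and its other probe set differed by 0.19 (SE 0.19). With 1 array left out the Cobll1 difference ran from 0.030 (without WT 1) to 0.45 (without knockout 1). Tbx15 read 5.42, 6.39 and 5.95 in WT and 5.32, 5.75 and 5.67 in knockout, a difference of −0.34 (SE 0.27). Tbx15 differed by −0.11 without WT 2 and by −0.59 without WT 1. Its other probe set read 2.81 to 3.26 in WT and 2.77 to 2.93 in knockout, near the bottom of the array.

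Adamts9 was read differently by its 3 probe sets. The brightest gave 6.81, 7.51 and 6.99 in WT and 6.14, 7.26 and 7.39 in knockout, a difference of −0.17 (SE 0.36) that was 0.22 without knockout 1 and 0.03 without WT 2. A second gave 5.83, 5.49 and 5.16 in WT and 6.55, 6.13 and 5.92 in knockout, higher by 0.70 (SE 0.24) with no overlap and of like size in both series (0.68 and 0.75). The third stayed between 4.80 and 5.03 in WT and between 4.81 and 5.01 in knockout. No direction is given for Adamts9 for this reason.

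**Figure D2:**
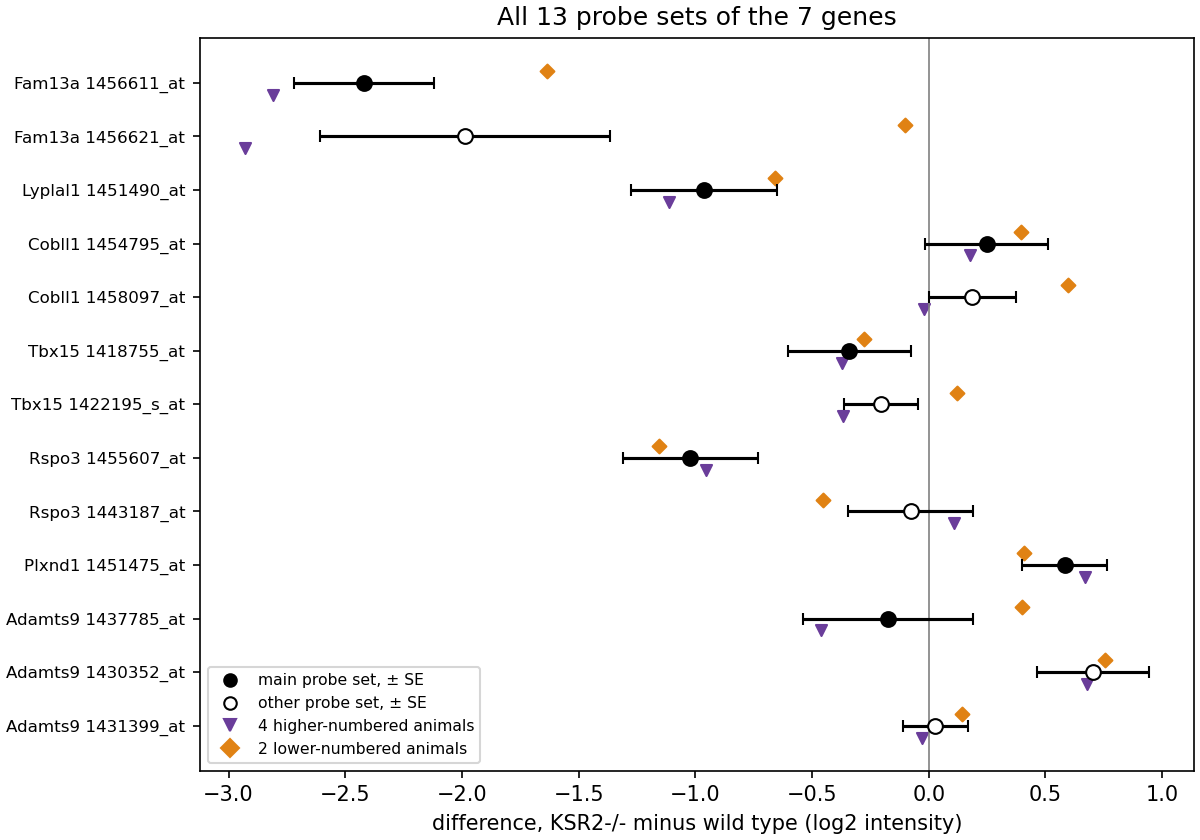
Difference in log2 intensity between KSR2-/- and WT (horizontal axis) for the 13 probe sets of the 7 genes, with filled circles for the main probe set, open circles for others, bars for SE, triangles for the 4 higher-numbered animals and diamonds for the lower-numbered pair. Both Fam13a probe sets lie far to the left, but the second shows −0.10 in the lower-numbered pair, and the Adamts9 probe sets lie on both sides of 0.

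Genes with profiles like Fam13a were sought by the root mean square difference over the 6 arrays, after each gene was centred on its own mean, among 8924 other genes with at least median signal and without a clone-type symbol. The nearest were the claudin gene Cldn22 (0.42 log2), Tst (0.45), which encodes a mitochondrial sulfurtransferase, the angiotensinogen gene Agt (0.48), the pantetheinase gene Vnn3 (0.52), the flavin monooxygenase gene Fmo1 (0.52), Irs1 (0.54), the vitamin E transfer protein gene Ttpa (0.54) and the monoacylglycerol acyltransferase gene Mogat1 (0.55). The groups did not overlap in any of these 8 genes, and a search for likeness to Fam13a favours such genes. Limma called 0 of them, with adjusted p from 0.0960 to 0.197. Knockout 3 was the highest knockout in all 8, as it was for Fam13a. Knockout 1 was the lowest array in 7 of them, whereas for Fam13a it was knockout 2.

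**Figure D3:**
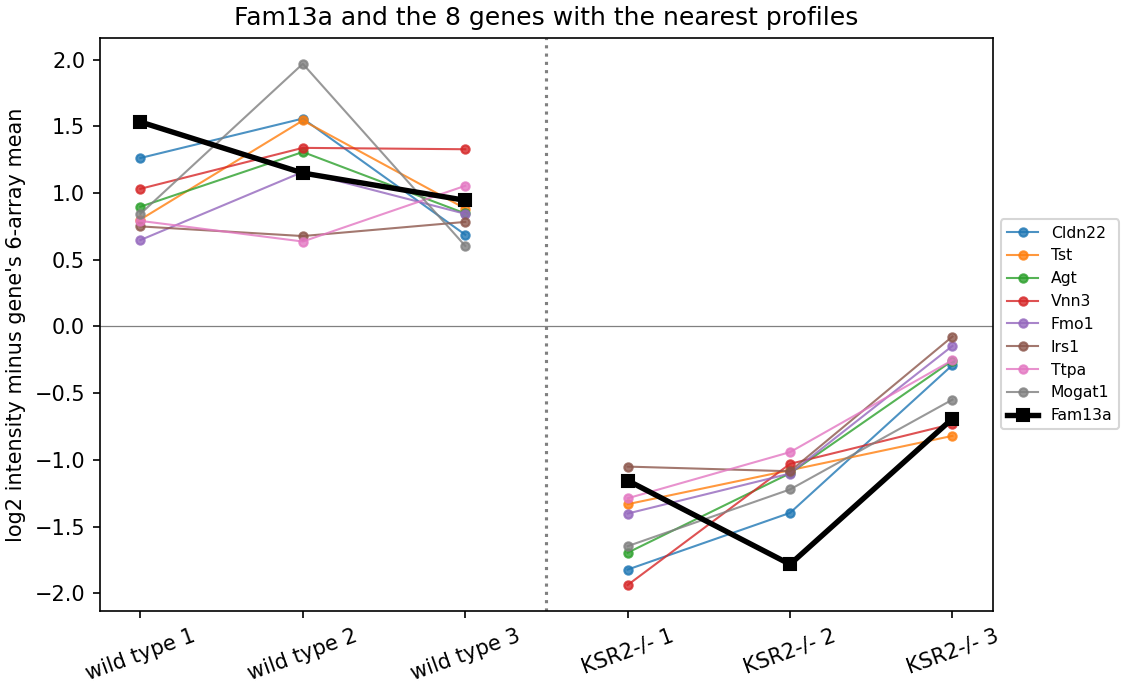
Log2 intensity minus each gene's mean over 6 arrays (vertical axis) on each array (horizontal axis), for Fam13a (thick black, squares) and its 8 nearest genes (colours), with lines only to join the points of a gene within a genotype. In all 9 genes the 3 WT points lie above 0 and the 3 knockout points below it, with knockout 3 the highest knockout.

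Irs1 is the gene of this group with a known tie to FAM13A, encoding the insulin receptor substrate that passes the insulin signal to phosphatidylinositol 3-kinase. It read 10.46, 10.39 and 10.49 in WT and 8.66, 8.62 and 9.63 in knockout, with means of 10.45 ± 0.05 and 8.97 ± 0.57 (SD, n = 3 each). The WT arrays lay within 0.11 of each other and knockout 3 was midway. The difference was −1.47 (SE 0.28, limma adjusted p = 0.197), at −1.78 among the higher-numbered animals and −0.86 for the other pair. Without knockout 3 it was −1.81 at a limma adjusted p of 0.00552, and over its alternatives the adjusted p ran from 0.00552 to 0.711. Among 23 measured genes of FAM13 relatives and insulin signalling, 0 passed limma, 2 were lower and 2 higher at an unadjusted p below 0.05 (17.4%, beside 12.1% of all genes), and the median difference was −0.05. The kinase gene Akt1 read 8.20 ± 0.05 and 8.85 ± 0.01 (difference 0.65, SE 0.14, limma adjusted p = 0.210, and 0.42 with the mean of its probe sets) and the phosphatase gene Ptpn1 differed by 0.75 (SE 0.22, limma adjusted p = 0.284). Fam13b and Fam13c, the relatives of Fam13a, differed by 0.32 (SE 0.29) and −0.07 (SE 0.20), and both overlapped between the groups.

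Rspo3 acts through the LGR receptors and the ubiquitin ligases ZNRF3 and RNF43. Lgr4 (0.14, SE 0.19), Lgr5 (−0.04, SE 0.24) and Lgr6 (−0.03, SE 0.18) differed by less than their standard errors. Znrf3, itself a fat-distribution locus gene and a Wnt target, read 6.65, 6.87 and 6.21 in WT and 6.12, 5.84 and 6.07 in knockout, a difference of −0.57 (SE 0.21, limma adjusted p = 0.362), or −0.35 with the mean of its probe sets. Axin2, another Wnt target, differed by −0.85 (SE 0.43) and overlapped between the groups. Other Wnt pathway genes of the list did not read lower. Nkd1 differed by 0.50 (SE 0.52), Nkd2 by 0.06 (SE 0.20) and Lef1 by 0.06 (SE 0.62), all with overlap. Of 40 measured R-spondin, Wnt and receptor genes, 0 passed limma, 1 was lower and 1 higher with unadjusted p below 0.05, and 1 did not overlap (2.50%, beside 16.3% of all genes). The unadjusted calls made 5.00% of the list, beside 12.1% of all genes. The genes of smallest p were Sfrp1, which encodes a secreted Wnt inhibitor (1.00, SE 0.34, limma adjusted p = 0.319), Znrf3 and the Wnt ligand gene Wnt10b (−0.42, SE 0.20, adjusted p = 0.468 by limma). The other R-spondin genes Rspo1, Rspo2 and Rspo4 differed by 0.05, −0.05 and −0.17.

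Around the receptor gene Plxnd1, its ligand gene read the other way. Sema3e read 4.51, 5.04 and 4.31 in WT and 3.59, 3.50 and 3.69 in knockout, with no overlap and a difference of −1.02 (SE 0.22, limma adjusted p = 0.210) at a dim signal, the 29.2th percentile. Sema3d differed by −0.75 (SE 0.20, limma adjusted p = 0.259) without overlap. With the mean of their probe sets Sema3e was −0.60 and Sema3d −0.49. Plxnb2, another plexin gene, read 7.45 ± 0.31 and 8.85 ± 0.32, higher by 1.40 (SE 0.24, limma adjusted p = 0.193, with 0.0196 without knockout 3 and 0.0196 to 0.704 over all alternatives). Of 23 measured plexin, neuropilin and semaphorin genes, 0 passed limma, while 2 were lower and 4 higher with unadjusted p below 0.05, beside 5.38% and 6.71% of all genes. In 7 of the 23, 2 of them lower and 5 higher, the groups did not overlap (30.4%, beside 16.3% of all genes). Macrophage markers were higher in the same arrays: 9 of 10 read above WT in the mean, with Cd68 (7.72 and 10.19), Adgre1 and Lyz2 of smallest p and Cd163 lower (−0.58). Their part in the plexin values was not tested.

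Among 24 measured relatives and substrates of ADAMTS9, limma passed 0, with 2 lower and 3 higher with unadjusted p below 0.05 (20.8%, beside 12.1% of all genes). Adamtsl1, which encodes an ADAMTS-like protein without a protease domain, read 5.81, 6.16 and 6.25 in WT and 4.80, 5.05 and 4.89 in knockout (−1.16, SE 0.18, limma adjusted p = 0.174). It was −0.66 with the mean of its probe sets, and the limma adjusted p was 0.0395 without knockout 3, in a range of 0.0395 to 0.693 over all alternatives. Adamts4 differed by 0.88 (SE 0.21) and Adamts1 by 1.33 (SE 0.39), both without overlap and with limma adjusted p of 0.235 and 0.280, and without WT 1 Adamts1 was 0.88. Of 29 measured T-box and positional genes, the relatives of Tbx15, 22 were lower in the mean, with a median of −0.13 log2 where 55.6% of all genes were lower. Limma passed 0 of them, and 2 were lower and 0 higher with unadjusted p below 0.05 (6.90%, beside 12.1% of all genes). Tbx1 differed by −0.63 (SE 0.16), Hoxa5 by −0.67 (SE 0.21) and Meox1 by 0.43 (SE 0.21), and Tbx18 overlapped at 0.21 (SE 0.30).

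For the enzyme relatives of Lyplal1, 0 of 18 thioesterase and depalmitoylase genes passed limma, with 1 lower and 2 higher with unadjusted p below 0.05 (16.7%, beside 12.1% of all genes). The close relatives Lypla1 (−0.23, SE 0.18) and Lypla2 (0.19, SE 0.44) both overlapped, unlike Lyplal1. The lipase gene Abhd6, whose product degrades monoacylglycerol, differed by −0.95 (SE 0.35), with 0.19 the other way in the lower-numbered pair. Abhd12 differed by 0.74 and Zdhhc21 by 0.66 (limma adjusted p = 0.309 to 0.366 for these 3). Cobl, the namesake of Cobll1, differed by 0.12 (SE 0.51), and of 12 actin nucleator genes limma passed 0, with 1 lower and 3 higher with unadjusted p below 0.05 (33.3%, beside 12.1% of all genes). Fmn1, a formin gene, read 5.02 ± 0.46 and 6.87 ± 0.66 (difference 1.85, SE 0.38, adjusted p = 0.197 by limma, with 0.0166 without knockout 3 and 0.0166 to 0.711 over all alternatives), and 1.16 with the mean of its probe sets. The Wiskott-Aldrich gene Was, active in blood cells, differed by 1.03 (SE 0.30), and Pacsin3 by −0.88 (SE 0.35).

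Of 45 other genes at fat-distribution loci, named from human studies, limma passed 0. At an unadjusted p under 0.05 there were 6 lower and 6 higher, or 26.7% beside 12.1% of all genes, and in 14 the groups did not overlap, 7 in each direction (31.1%, beside 16.3% of all genes). Differences ran from −1.47 to 1.36 with a median of 0.00, so the list had no common direction. Irs1, Eya2 (0.61, SE 0.16, limma adjusted p = 0.258), which encodes a transcription cofactor, and the vessel growth factor gene Vegfa (−0.65, SE 0.18, limma adjusted p = 0.267) had the smallest p. Stab1, a scavenger receptor of macrophages and endothelium, had the highest difference (1.36, SE 0.41), at 1.91 among higher-numbered animals and 0.27 in the pair. The genes that share a human locus with one of the 7 were also read. Grb14, next to Cobll1, differed by 0.63 (SE 0.42) and overlapped. Wars2, next to Tbx15, differed by −0.44 (SE 0.19, limma adjusted p = 0.423) without overlap.

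**Figure D4:**
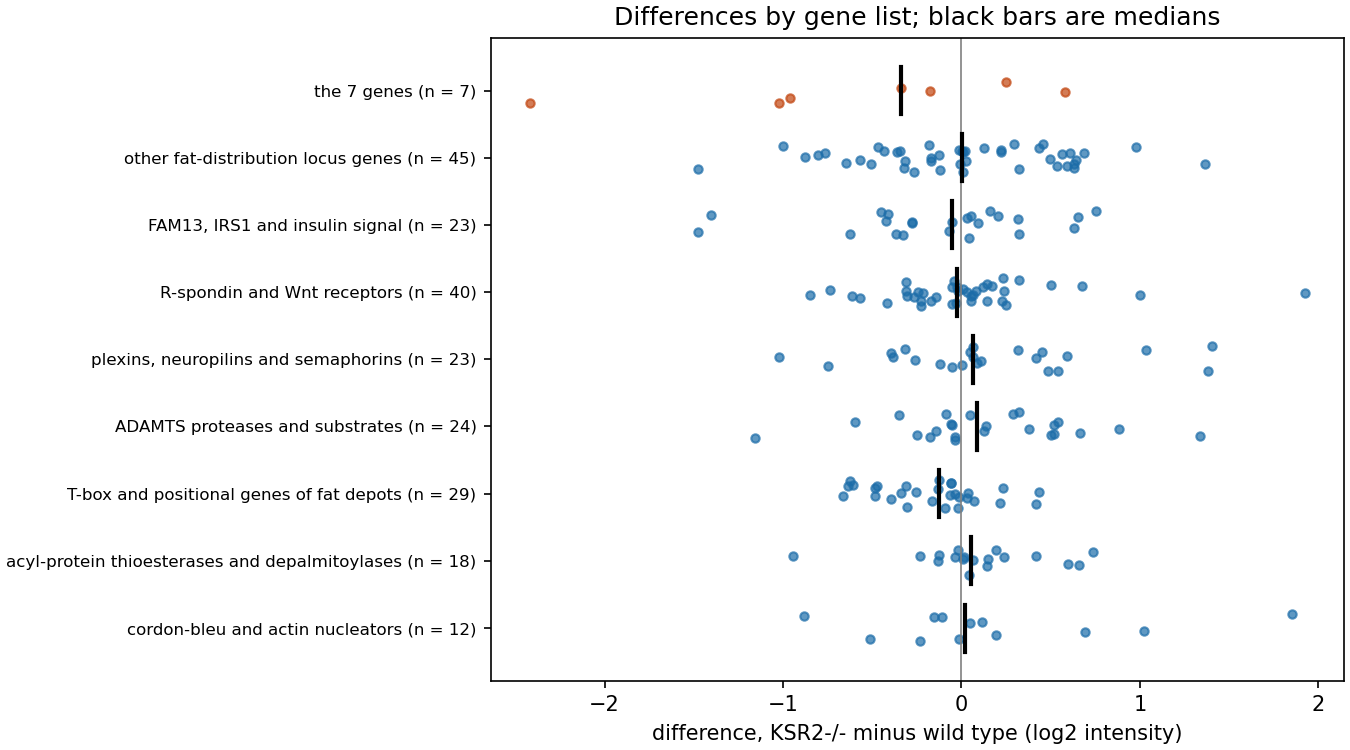
Difference in log2 intensity between KSR2-/- and WT (horizontal axis) for the 7 genes (orange) and the measured genes of 8 lists built around their roles (blue), 1 point a gene, with black bars for medians and vertical scatter only for legibility. The blue medians lie between −0.13 and 0.09, and Fam13a at −2.42 lies left of every other point.

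The 2 nearest measured genes on each side of each of the 7, 28 genes in all, were read beside them. Limma passed 0, and 2 of the 28 had an unadjusted p under 0.05, beside 12.1% of all genes. In 4 of the 28 (14.3%) the groups did not overlap, beside 16.3% of all genes. Next to Fam13a, Tigd2 differed by −0.05 (SE 0.27), Herc3 by 0.36 (SE 0.23), Gprin3 by 0.91 (SE 0.39) and Nap1l5 by −1.38 (SE 0.65), and all 4 overlapped between the groups.

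Markers of other cell types were set beside these results for each list. Stromal progenitor markers had a mean level of 9.31 to 10.34 in WT and 9.71 to 10.19 in knockout, and Pdgfra, Thy1 and Col1a1 differed by −0.41, 0.63 and 0.92. Endothelial markers ranged from 6.65 to 7.21 and from 6.80 to 7.33, with Eng, Tek and Vwf at 0.51, −0.58 and 0.51. Mesothelial markers were highest in knockout 3 (8.58, against 6.53 to 7.59 elsewhere), with Msln, Bnc1 and Upk1b at 0.96, 0.28 and 0.32, the last at −0.19 without knockout 3. Lymphocyte markers ranged from 6.09 to 7.20 in WT and from 6.75 to 7.14 in knockout, with Ighm, Cd79b and Cd79a at 1.10, 0.61 and 0.35. Of the muscle and mammary markers, Tnnc2, Actn3 and Ckm differed by −1.21, −0.71 and −0.86, and Trp63, Csn2 and Cldn3 by −1.28, −0.67 and −0.71. Without WT 3 the muscle differences were −0.38, −0.25 and −0.093, and Pvalb (0.61) and Acta1 (0.25) of the same list read higher in knockout. Trp63 was −0.44 with the mean of its probe sets. Among the adipocyte markers Retn, Lep and Adipoq differed by −1.23, 1.45 and −0.51. Without WT 1, Lep was 0.77, Col1a1 0.43, Thy1 0.33 and Vwf 0.11, and without knockout 3 Msln was 0.28 and Bnc1 0.019. Limma passed 0 genes of any of these 8 marker lists, counting the macrophage list (Adgre1 at 1.49, Lyz2 at 0.95), while 13 of the 76 measured list entries had an unadjusted p under 0.05 (17.1%, beside 12.1% of all genes), and their part in the values of the 7 genes was not tested.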

How the data were processed

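Total RNA of white adipose tissue from 6 mice was hybridized to 1 Affymetrix array each. The authors deposited 1 table of RMA intensity values, RMA being named in the submitters' processing notes (with no version) and a linear scale being read from the values, whose minimum was 2.96. Log2 was taken of each value with no pseudocount. Of 45101 probe sets, 34945 had exactly 1 gene symbol, 932 had several, 9160 had none listed in the annotation used and 64 were controls, and symbols were updated to RefSeq GRCm38.p6. For a gene with several single-gene probe sets, the brightest on average stood for it, giving 18193 genes. None of the 7 genes was held by a probe set of several genes.

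The genotype difference was fitted by limma 3.58.1 under R 4.3.3 (lmFit, eBayes without trend). P-values are two-sided and were adjusted by Benjamini-Hochberg across the 18193 genes, with 0.05 as threshold. Standard errors are moderated, with a median of 0.22 log2, and the number of arrays limits the precision. Values of probe sets other than the main one come from a fit of 45037 probe sets. The fit was tested on simulated data. The 7 genes and the lists around them were chosen with earlier results of these data known. Genes named are the 7, the 3 genes of smallest p in each list and the 8 nearest profiles of Fam13a, leaving out clone-type symbols (Rik, Gm, LOC or accessions). The neighbours of Fam13a and receptors, ligands, Wnt pathway genes and close relatives of the 7 named beyond these were picked after their values were seen. Examples are Lgr4, Rspo1, Lypla1, Fam13b, Axin2, Nkd1, Nkd2, Lef1, Cobl, Tbx18 and Stab1. Replicates were numbered in accession order, so no arrays were paired. The animals are separate mice, per the labels. The alternatives were a filter on dim genes, the mean of all probe sets, every probe set on its own, renewed quantile normalization, median centring, eBayes with trend, the animal number series as a block, the Gapdh difference as a covariate and each array left out in turn. Leaving out both lower-numbered animals was added after seeing the data.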

Additional observations from a re-analysis of the deposited data

How the results depend on the processing

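Of the 7 genes, the number past the threshold (limma, 0 of 7) became 1 when genes below the median signal were left out, 1 when both lower-numbered animals were left out (2 against 2 arrays) and 0 to 2 with 1 array left out. The number without overlap, 4, stayed within 3 to 5 under every alternative run. This count uses the values alone, so the trend, block and covariate fits could not change it. Leaving out arrays could only keep or raise it. The 3 came with the filter on dim genes, which drops Rspo3. Over all genes, the count of 1 became 12 (filter on dim genes), 2 (renewed quantile normalization), 16 (median centring), 10 (trend), 0 (number series as a block), 6 (Gapdh covariate), 0 (every probe set), 487 (both lower-numbered animals left out) and 0 to 816 with 1 array left out, the highest without knockout 3. Fewer genes were tested under the filter and more under the fit of every probe set, and the other causes were not tested. Without knockout 3, 19 of the 61 genes with values under the alternatives passed, beside 816 of all 18193. Fam13a, Lyplal1 and Irs1 were among the 19. Adamts9 reversed to 0.19 with the mean of its probe sets, to 0.030 without WT 2 and to 0.22 without knockout 1, and ran from −0.40 to 0.22 with 1 array left out. Upk1b ran from −0.19 (without knockout 3) to 0.78 with 1 array left out, and reversed to −0.041 without both lower-numbered animals. Of the 839 differences of single named genes under the alternatives, 796 kept their direction and their side of the threshold, 38 came to pass it and 5 reversed. None of these genes passed in the main fit, so keeping the side meant not passing again. The trend and block fits could not change a difference or its direction. Dim probe sets, such as those of Rspo3 and Tbx15, have no detection call here.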

Other observations

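Among the 21 pairs of the 7 genes, Lyplal1 and Rspo3 had the nearest profiles over the 6 arrays, with a root mean square difference of 0.19 log2 after centring. Lyplal1 stood among the 8 nearest genes of Rspo3, although the main signal of Rspo3 is dim. The gene nearest to Lyplal1 was Ccl24, which encodes an eosinophil-attracting chemokine (0.07 log2), and Retnla, a gene of alternatively activated macrophages, was at 0.11. Ccl24 was also the second nearest of Rspo3 (0.15), after the histamine methyltransferase gene Hnmt (0.13), with Cd209f (0.17) and Fcna (0.18), genes of resident macrophages, among the 8. These names were chosen after their values were seen, and the likeness rests on 6 arrays that also share the genotype difference.

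Ccl24 read 7.77 ± 0.36 log2 in WT and 6.88 ± 0.53 in knockout (SD, n = 3 each), a difference of −0.89 (SE 0.31). Retnla read 12.73 ± 0.25 and 11.65 ± 0.72, a difference of −1.08 (SE 0.36), and Cd209f read 9.03 ± 0.24 and 7.99 ± 0.42, a difference of −1.04 (SE 0.25). The groups did not overlap in these 3 genes, and a search for likeness to Lyplal1 and Rspo3 favours such genes. None of the 3 passed limma over all genes (adjusted p from 0.240 to 0.325). The macrophage marker list mostly read the other way, with 9 of 10 higher in knockout and a median difference of 0.83. In that list Mrc1 differed by 0.36 (SE 0.28), Mertk by 0.71 (SE 0.32) and Cd163 by −0.58 (SE 0.32). A change in resident macrophages was not tested.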
